A study of Mus musculus with 8 samples.

Results

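The genes described here are those of the mouse major histocompatibility complex (MHC, called H2 in the mouse) and their partners in antigen presentation. They were taken as every gene symbol that starts with H2-, plus B2m, Tap1, Tap2, Tapbp, Cd74, Ciita, Nlrc5 and Erap1, which gave 49 of the 21182 genes in the expression table. RNA had been sequenced from single whole embryos at E6.75, when the primitive streak begins to form. The labels give 4 embryos of the genotype Tet1/2/3 TKO and 4 of the genotype Control, all on the C57BL/6 background. TKO stands for triple knockout, here of the methylcytosine dioxygenase genes Tet1, Tet2 and Tet3. The labels name no Cre driver, allele, litter or sex for either group. Epiblast markers (6 of 6), visceral endoderm markers (8 of 8) and extraembryonic ectoderm markers (6 of 6) all reached 1 RPKM in 4 or more embryos. RPKM counts the reads on a gene, divided by its length in kilobases and by the library's total in units of 1000000 mapped reads.

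Class I molecules display peptides from inside the cell to CD8 T cells and to natural killer cells, and each is a heavy chain bound to beta-2 microglobulin. Peptides are cut by the proteasome, pumped into the endoplasmic reticulum by the Tap1-Tap2 transporter, trimmed by Erap1 and loaded with the help of tapasin, the product of Tapbp. Class II molecules are alpha-beta pairs that present peptides from endosomes to CD4 T cells, mainly on dendritic cells, macrophages and B cells. Nlrc5 switches on class I genes and Ciita class II genes. The early embryo is known for low levels of class I, and the surrounding maternal decidua carries its own class I and class II cells.

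Of the 49 genes, 2 were classical class I heavy chains, 25 nonclassical class I genes, 10 class II genes, 8 partners or regulators and 3 genes that carry an H2-K name without being the classical heavy chain. The remaining one, H2-Gs10, is listed by RefSeq as an older name of H2-Q4. A mean of at least 1 RPKM in a group was reached by 14 genes, and 13 passed the filter for testing, which asked for 4 or more embryos at 1 RPKM or above. The other 35 stayed below that mean in both groups. Between 33 and 39 of the 49 genes were above 0 in a TKO-labelled embryo, and between 33 and 44 in a Control embryo. Over all 21182 genes, 3227 to 4942 were at 0 in a TKO-labelled embryo and 2186 to 4466 in a Control embryo. Control replicate 3, with 44 of the 49 above 0, also had the fewest genes at 0 over all genes. One read on a gene model of 1 kilobase was worth an estimated 0.0527 to 0.101 RPKM, so values near or below 0.1 RPKM stand for about 1 read per kilobase.

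The targeted genes moved in different directions in this table. Tet1 had 15.3, 9.50, 9.21 and 11.7 RPKM in TKO-labelled replicates 1 to 4, against 5.04, 5.25, 4.93 and 5.76 RPKM in Control replicates 1 to 4. Tet2 averaged 0.784 ± 0.172 RPKM in TKO-labelled and 0.725 ± 0.189 RPKM in Control embryos (SD, n = 4 each). Tet3 had 1.48, 1.22, 1.68 and 1.14 RPKM in TKO-labelled replicates 1 to 4, against 1.80, 1.79, 1.73 and 2.08 RPKM in Control replicates 1 to 4. Both Tet1 and Tet3 separated the groups, Tet1 against the direction of the label and Tet3 along it, while Tet2 overlapped. The Tet1 level goes against the label, and the values say nothing of single exons, since the table sums over each gene. The embryos are therefore called TKO-labelled, and each direction below rests on that label.

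The promoters of the classical heavy chain genes and of B2m are shown because these genes gave the highest class I levels and because H2-K1 and H2-D1, whose values are set side by side next, have closely related promoters. The windows are RefSeq's, from 250 bases before to 50 bases after the annotated start. RefSeq lists 2 windows for H2-K1, of which the first listed is shown, and 1 each for H2-D1 and B2m. H2-K1 lies on the minus strand at chr17:34000298-34000597, H2-D1 on the plus strand at chr17:35262844-35263143 and B2m on the plus strand at chr2:122147437-122147736, all in GRCm38.p6, a later build than the mm9 of the deposited values. Capitals mark, on either strand, the kappaB letters GGGGATT, the interferon-response letters GTGAAAC, the half-site TGACG of cyclic AMP response elements and the Y-box letters CCAAT, none of which overlap.
H2-K1: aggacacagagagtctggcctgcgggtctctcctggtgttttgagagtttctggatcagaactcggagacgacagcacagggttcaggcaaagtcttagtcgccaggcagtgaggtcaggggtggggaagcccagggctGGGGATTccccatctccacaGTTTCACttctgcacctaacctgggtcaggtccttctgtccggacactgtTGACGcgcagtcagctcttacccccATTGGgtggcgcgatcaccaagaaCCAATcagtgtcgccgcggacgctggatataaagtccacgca
H2-D1: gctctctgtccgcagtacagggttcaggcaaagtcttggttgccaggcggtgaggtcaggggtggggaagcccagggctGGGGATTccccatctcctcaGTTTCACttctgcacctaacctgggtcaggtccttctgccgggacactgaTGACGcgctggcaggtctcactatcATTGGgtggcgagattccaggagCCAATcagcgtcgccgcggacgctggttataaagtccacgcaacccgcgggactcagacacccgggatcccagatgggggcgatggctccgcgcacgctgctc
B2m: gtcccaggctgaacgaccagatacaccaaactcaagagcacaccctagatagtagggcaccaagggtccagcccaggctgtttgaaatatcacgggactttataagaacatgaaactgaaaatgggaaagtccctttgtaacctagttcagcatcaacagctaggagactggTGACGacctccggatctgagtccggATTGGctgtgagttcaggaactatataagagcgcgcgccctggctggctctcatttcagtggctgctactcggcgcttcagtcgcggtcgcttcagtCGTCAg
Over 239 aligned bases the H2-K1 and H2-D1 windows were 88.3% identical, with a longest run of 47 bases without a difference. Both hold the kappaB letters, as do 3.1% of all 32851 RefSeq promoter windows, and the interferon-response letters, as do 2.5%. These exact letters are not in the B2m window, but other forms of the 2 elements were not searched for, so their absence from B2m is not shown. All 3 hold TGACG (20.8% of windows) and CCAAT (37.4% of windows). CG dinucleotides, the substrate of DNA methylation, numbered 14 in the H2-K1 window, 19 in that of H2-D1 and 14 in that of B2m, against a median of 7 over all windows. The kappaB letters begin at -111 from the annotated start in the H2-K1 window and at -171 in that of H2-D1. The CG counts of these 2 windows therefore cover unlike stretches. Of all windows, 36.3% held 14 or more and 28.1% held 19 or more. These matches describe the sequence, and no methylation or binding was measured in these embryos.

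Of the classical class I heavy chains, which present peptides to CD8 T cells, H2-K1 was lower in most TKO-labelled embryos, though not past the threshold, and H2-D1 overlapped between the groups. H2-K1 had 16.7, 5.48, 8.08 and 12.9 RPKM in TKO-labelled replicates 1 to 4, against 18.2, 20.5, 15.7 and 23.7 RPKM in Control replicates 1 to 4. The values of 3 TKO-labelled embryos lay below every Control value, and TKO-labelled replicate 1 lay inside the Control range. The group means were 10.8 ± 5.0 RPKM in TKO-labelled and 19.5 ± 3.38 RPKM in Control embryos (SD, n = 4 each), a ratio of 0.552. On the log2(RPKM + 1) scale the difference, TKO-labelled minus Control, was -0.89 (SE 0.27, 95% confidence interval -1.50 to -0.28). It did not pass the threshold (limma p = 0.00811, adjusted p = 0.182 by Benjamini-Hochberg over 10451 genes, exact two-sided permutation p = 0.0571). Its adjusted p ran from 0.0933 to 0.715 over all alternatives.

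H2-D1 had 13.5, 2.56, 8.39 and 7.69 RPKM in TKO-labelled replicates 1 to 4, against 8.09, 5.51, 10.9 and 10.2 RPKM in Control replicates 1 to 4. TKO-labelled embryos held both the highest and the lowest value, in replicates 1 and 2, and the groups overlapped. Its log2 difference was -0.23 (95% interval -1.03 to 0.58, limma adjusted p = 0.776), and it was 0.17 without TKO replicate 2. The 2 heavy chains together summed to 30.2, 8.03, 16.5 and 20.6 RPKM in TKO-labelled replicates 1 to 4, against 26.3, 26.0, 26.6 and 33.8 RPKM in Control replicates 1 to 4. The sum in TKO-labelled replicate 2 was thus the lowest of the 8 embryos. The ratio of H2-K1 to H2-D1 was 1.24, 2.14, 0.964 and 1.67 in TKO-labelled replicates 1 to 4, against 2.25, 3.73, 1.44 and 2.33 in Control replicates 1 to 4. In all embryos but TKO-labelled replicate 3 the level per length of H2-K1 was thus the higher one.

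**Figure D1:**
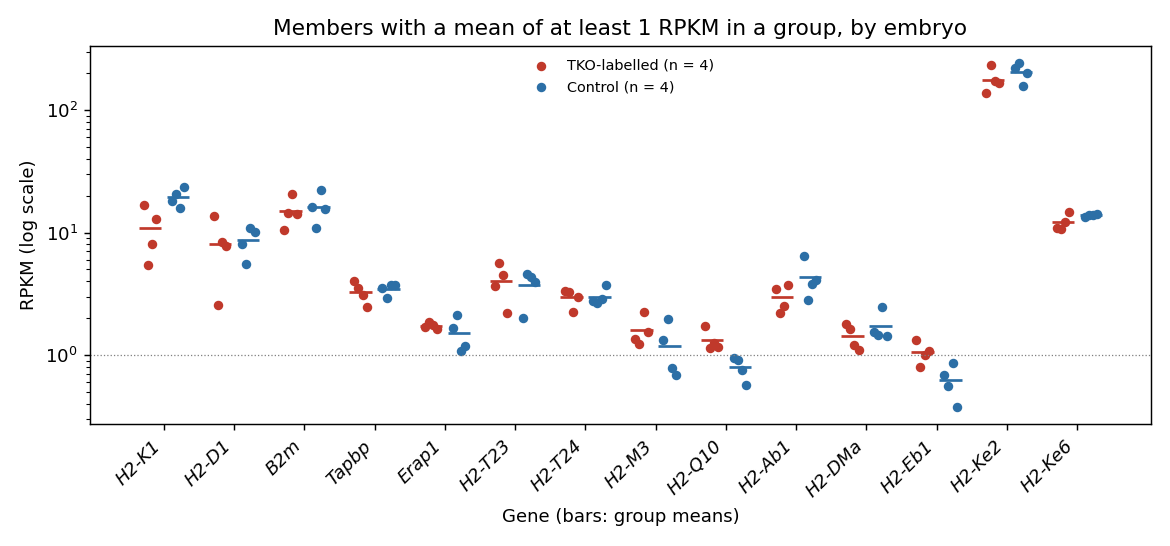
RPKM on a log axis for the 14 genes with a mean of at least 1 RPKM in a group, 1 point per embryo (TKO-labelled left, Control right, n = 4 each) and a bar at each group mean. H2-K1 sits lower in 3 of the 4 TKO-labelled embryos. The groups of H2-Q10 do not overlap (nor do those of 9.41% of all tested genes), but nothing is read from this, since only TKO-labelled embryos brought it past the filter of 1 RPKM.

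Summed parietal endoderm markers were highest in the 3 embryos with the lowest H2-K1, and their part in its level was not tested. Their summed level (10 of 10 markers past the filter, none at 0 in every embryo) was 193 to 710 RPKM in TKO-labelled and 126 to 246 RPKM in Control embryos. TKO-labelled replicate 1, at 193 RPKM, was the one TKO-labelled embryo inside the Control range of that sum, as it was for H2-K1. Control embryos did not keep this order. Control replicate 4 had the highest Control sum, 246 RPKM, and the highest H2-K1 of all embryos, 23.7 RPKM. Control replicate 3, with a sum of 137 RPKM, had the lowest Control H2-K1, 15.7 RPKM. With the parietal endoderm level as a covariate the log2 difference of H2-K1 was -0.32 (limma adjusted p = 0.715). The other TKO-labelled embryos all lay above the Control range of the sum, so this covariate cannot separate the marker level from the group label. In whole embryos fewer cells of a type and less RNA per cell cannot be told apart. Decidual stroma markers are from the maternal tissue around the embryo. The summed decidual stroma markers were 26.9, 13.8, 404 and 61.4 RPKM in TKO-labelled replicates 1 to 4, against 203, 3.08, 443 and 254 RPKM in Control replicates 1 to 4. All 10 markers were in the table and 7 passed the filter, Hoxa11 was at 0 in TKO-labelled replicate 1 and Control replicate 2, and Hand2 in TKO-labelled replicate 2. The lowest decidual level, in Control replicate 2, stood beside 20.5 RPKM of H2-K1, and the highest, in Control replicate 3, beside 15.7 RPKM. With the decidual level as a covariate the difference of H2-K1 was -0.90 (limma adjusted p = 0.194).

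Reads of class I genes may also be shared. Of the windows of 50 bases in the longest coding transcript, 8.79% for H2-K1 and 14.3% for H2-D1 occurred exactly in a transcript of another gene, mostly of other class I genes, in GENCODE release M21. The share was 28.8% for H2-T23 and 8.03% for H2-Q10. How the authors treated such reads is not given in the sources used here, so levels of these genes are uncertain to that extent.

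B2m, the light chain common to all class I molecules, had 10.5, 14.4, 20.7 and 14.2 RPKM in TKO-labelled replicates 1 to 4, against 16.2, 11.0, 22.1 and 15.6 RPKM in Control replicates 1 to 4. The groups overlapped throughout, with a log2 difference of -0.11 (95% interval -0.60 to 0.38, limma adjusted p = 0.824). Both embryos above 20 RPKM, TKO-labelled replicate 3 and Control replicate 3, also had the highest decidual stroma sums, 404 and 443 RPKM. Both embryos below 12 RPKM, TKO-labelled replicate 1 and Control replicate 2, had sums of 26.9 and 3.08 RPKM. The embryos between them did not keep this order. TKO-labelled replicate 2, with a sum of 13.8 RPKM, had 14.4 RPKM of B2m, and Control replicate 4, with a sum of 254 RPKM, had 15.6 RPKM. The part of maternal tissue in the B2m level was not tested. The decidual prolactin Prl8a2 alone made up 354 RPKM in TKO-labelled replicate 3 and 1.32 RPKM in Control replicate 2. With the decidual level as a covariate the log2 difference of B2m was -0.01 (limma adjusted p = 0.976), and with the parietal endoderm level as a covariate it was -0.57 (limma adjusted p = 0.412). B2m stood at 0.346, 1.80, 1.26 and 0.690 times the heavy chain sum in TKO-labelled replicates 1 to 4, against 0.616, 0.422, 0.830 and 0.460 times in Control replicates 1 to 4. Light and heavy chain levels therefore did not keep a fixed ratio across embryos.

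**Figure D2:**
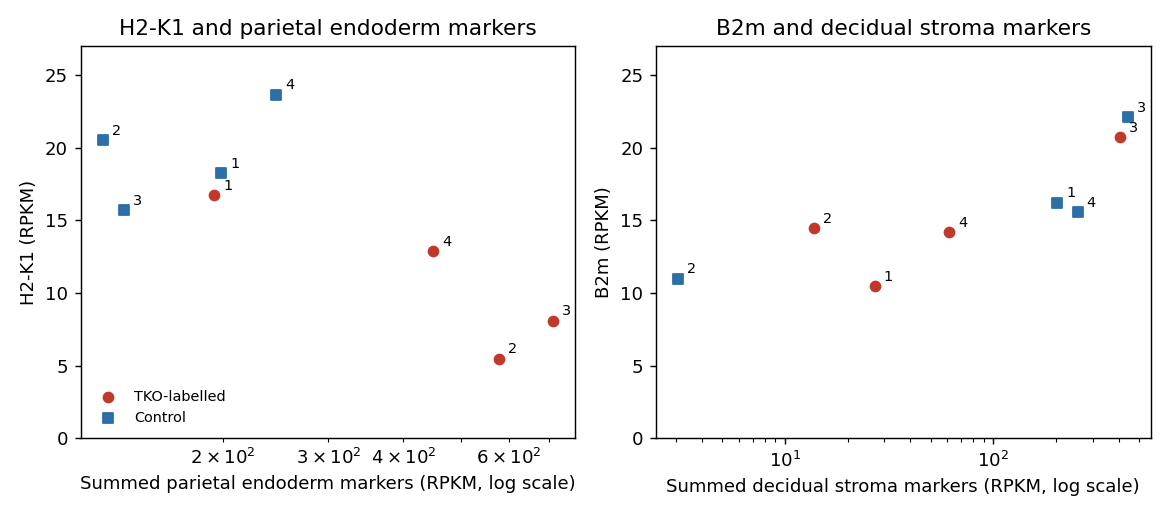
Left, H2-K1 against the summed parietal endoderm markers; right, B2m against the summed decidual stroma markers; RPKM, marker sums on log axes, 1 point per embryo numbered by replicate (circles TKO-labelled, squares Control). TKO-labelled replicates 2, 3 and 4 combine the highest parietal endoderm sums with the lowest H2-K1, and replicate 3 of each group combines the highest decidual sum with the highest B2m. Among Control embryos, replicate 4 has both the highest parietal endoderm sum and the highest H2-K1.

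Of the transporter, trimming and loading genes among the 49, Tapbp and Erap1 passed the filter, while Tap1 and Tap2 stayed below it. Tapbp had 3.99, 3.53, 3.11 and 2.48 RPKM in TKO-labelled replicates 1 to 4, against 3.54, 2.92, 3.73 and 3.72 RPKM in Control replicates 1 to 4 (log2 difference -0.07, 95% interval -0.38 to 0.23, limma adjusted p = 0.809). The peptide-trimming gene Erap1 averaged 1.74 ± 0.101 RPKM in TKO-labelled and 1.52 ± 0.486 RPKM in Control embryos (log2 difference 0.14, interval -0.19 to 0.47, limma adjusted p = 0.647). Erap1 was thus less spread among TKO-labelled embryos, at 1.63 to 1.86 RPKM, than among Control embryos, at 1.08 to 2.13 RPKM, a difference in spread that was not tested. The transporter subunit gene Tap1 stayed below the filter, with 0.478, 0.310, 0.835 and 0.317 RPKM in TKO-labelled replicates 1 to 4, against 0.718, 0.725, 1.11 and 0.825 RPKM in Control replicates 1 to 4. Only TKO-labelled replicate 3 reached the Control range, and the exact two-sided permutation p was 0.114. Its partner Tap2 was at 0 to 0.283 RPKM in TKO-labelled and 0.161 to 0.292 RPKM in Control embryos. The class I activator gene Nlrc5 was at 0.049 to 0.218 RPKM in TKO-labelled and 0.026 to 0.242 RPKM in Control embryos. For scale, 1 read per kilobase was worth an estimated 0.0527 to 0.101 RPKM.

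Of the 25 nonclassical class I genes, 4 passed the filter, and none of these passed the threshold over all genes. H2-T23, which encodes Qa-1, the ligand of the inhibitory CD94-NKG2A receptor of natural killer cells, had 3.67, 5.67, 4.49 and 2.20 RPKM in TKO-labelled replicates 1 to 4, against 2.02, 4.62, 4.32 and 3.96 RPKM in Control replicates 1 to 4. Both groups covered almost the same range, and the log2 difference was 0.07 (95% interval -0.48 to 0.63, limma adjusted p = 0.902). H2-T24 was steadier, at 2.26 to 3.33 RPKM in TKO-labelled and 2.63 to 3.73 RPKM in Control embryos (log2 difference -0.02, interval -0.32 to 0.29, limma adjusted p = 0.965). H2-M3, which presents peptides with an N-formyl methionine from bacteria and mitochondria, had 1.34, 1.24, 2.24 and 1.55 RPKM in TKO-labelled replicates 1 to 4, against 1.32, 1.97, 0.787 and 0.683 RPKM in Control replicates 1 to 4. The groups overlapped, with a log2 difference of 0.27 (interval -0.17 to 0.71, limma adjusted p = 0.507).

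H2-Q10, known in the adult mouse as a class I molecule secreted by the liver, was the one tested gene of the 49 whose groups did not overlap. It had 1.71, 1.15, 1.25 and 1.16 RPKM in TKO-labelled replicates 1 to 4, against 0.945, 0.907, 0.761 and 0.566 RPKM in Control replicates 1 to 4. The filter was met by the 4 TKO-labelled embryos alone. A gene that enters the tested genes in that way cannot overlap, so the lack of overlap is not a result about it. Groups did not overlap in 9.41% of all tested genes, with TKO-labelled embryos higher in 7.55%. The log2 difference of H2-Q10 was 0.37 (95% interval 0.07 to 0.66, limma adjusted p = 0.224, and 0.206 to 0.378 over the 11 alternatives in which it was tested). With any 1 TKO-labelled embryo left out it no longer met the filter and was not tested.

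The other 21 nonclassical genes lay between 0 and 0.983 RPKM, with 74 of their 168 values at 0. The highest single value was that of H2-Q1 in TKO-labelled replicate 3. The Qa-2 gene H2-Q7 was at 0.222 to 0.853 RPKM in TKO-labelled and 0.315 to 0.905 RPKM in Control embryos. The H2-M10 genes, known from vomeronasal neurons of the adult mouse, did not exceed 0.231 RPKM in any embryo.

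Class II genes were low and uneven across embryos. The alpha chain gene of I-A lay at 0 to 1.25 RPKM and the beta chain gene at 2.18 to 6.49 RPKM. H2-Ab1, the beta chain gene, had 3.46, 2.18, 2.50 and 3.71 RPKM in TKO-labelled replicates 1 to 4, against 6.49, 2.80, 3.83 and 4.08 RPKM in Control replicates 1 to 4. Its log2 difference was -0.39 (95% interval -0.86 to 0.07, limma adjusted p = 0.354), with overlapping groups, and it was -0.21 without Control replicate 1. H2-Aa, the alpha chain gene, had 0.094, 0.066, 0 and 1.19 RPKM in TKO-labelled replicates 1 to 4, against 1.25, 0, 0.899 and 1.04 RPKM in Control replicates 1 to 4. The 4 embryos with the highest H2-Ab1, TKO-labelled replicate 4 and Control replicates 1, 3 and 4, were also the 4 with 0.899 RPKM or more of H2-Aa. In TKO-labelled replicate 3 and Control replicate 2 H2-Aa was listed at 0 beside 2.50 and 2.80 RPKM of H2-Ab1. No window of 50 bases of H2-Ab1 was shared with another gene, while reads from the opposite strand cannot be told apart.

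Cd74, the invariant chain that guides class II molecules to endosomes, had 0.57, 0.10, 0.259 and 1.38 RPKM in TKO-labelled replicates 1 to 4, against 0.599, 0.047, 1.19 and 1.08 RPKM in Control replicates 1 to 4. It was above 1 RPKM in TKO-labelled replicate 4 and Control replicates 3 and 4, which also had 0.899 RPKM or more of H2-Aa, while Control replicate 1, with the highest H2-Aa, had 0.599 RPKM of Cd74. The dendritic cell markers (7 of 7 in the table, 1 past the filter) summed to 2.89, 3.74, 8.73 and 10.7 RPKM in TKO-labelled replicates 1 to 4, against 12.8, 7.78, 12.1 and 9.45 RPKM in Control replicates 1 to 4. Most of that sum was Batf3, at 2.41 to 9.80 RPKM in TKO-labelled and 7.23 to 12.5 RPKM in Control embryos. The macrophage markers (10 of 11 listed names in the table, with Emr1 listed also as Adgre1) summed to 1.26, 2.07, 4.18 and 6.22 RPKM in TKO-labelled replicates 1 to 4, against 1.71, 1.24, 4.59 and 3.18 RPKM in Control replicates 1 to 4. The sum was highest in TKO-labelled replicate 4. In TKO-labelled replicate 1 the markers Emr1, Lyz2, C1qa, C1qb, C1qc and Cx3cr1 were at 0. That embryo also had the lowest estimated depth and, at 4942 of all 21182 genes, the most genes at 0. The 5 leukocyte markers summed to 2.46 to 4.57 RPKM in TKO-labelled and 2.57 to 8.35 RPKM in Control embryos. Of these, Ptprc was listed at 0 in TKO-labelled replicates 1 and 2 and at most at 0.246 RPKM elsewhere, while Coro1a was highest in TKO-labelled replicate 1, at 2.21 RPKM. B cell markers summed to 0.263 to 0.813 RPKM in TKO-labelled and 0.39 to 1.48 RPKM in Control embryos. The part of these cells in the class II levels was not tested. Ciita, the class II activator gene, did not exceed 0.068 RPKM in any embryo, at about 1 read per kilobase.

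H2-DMa, a subunit of the H2-DM exchanger that loads peptides onto class II molecules, averaged 1.43 ± 0.339 RPKM in TKO-labelled and 1.72 ± 0.495 RPKM in Control embryos (log2 difference -0.16, interval -0.51 to 0.19, limma adjusted p = 0.632). Its partners H2-DMb1 and H2-DMb2 did not exceed 0.271 RPKM. H2-Eb1, the beta chain gene of I-E, had 1.33, 0.801, 1.00 and 1.07 RPKM in TKO-labelled replicates 1 to 4, against 0.689, 0.561, 0.863 and 0.375 RPKM in Control replicates 1 to 4. One value of each group reached into the range of the other, and the gene stayed below the filter, with an exact two-sided permutation p of 0.0571. C57BL/6 mice lack a working I-E alpha chain, and the alpha chain row H2-Ea-ps was above 0 in 1 embryo.

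**Figure D3:**
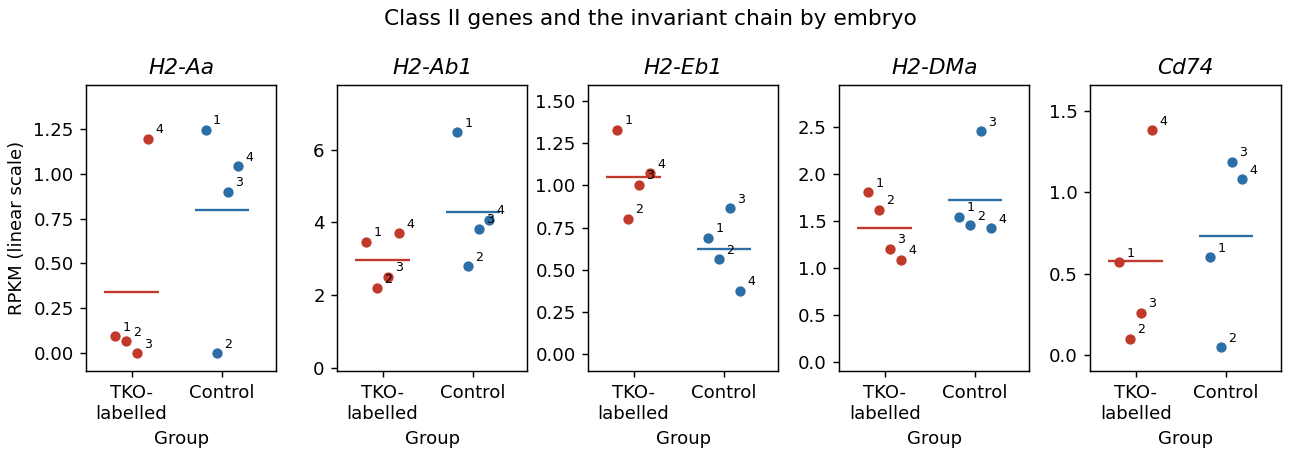
RPKM on linear axes for 4 class II genes and Cd74, 1 point per embryo numbered by replicate (TKO-labelled left, Control right, n = 4 each) and a bar at each group mean. H2-Aa is near or at 0 in TKO-labelled replicates 1, 2 and 3 and Control replicate 2, the 4 embryos in which H2-Ab1 is lowest, at 2.18 to 3.46 RPKM.

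The most abundant gene with an H2 name takes no part in antigen presentation. H2-Ke2, an older name of Pfdn6 for a subunit of the chaperone prefoldin, averaged 177 ± 40.7 RPKM in TKO-labelled and 204 ± 36.3 RPKM in Control embryos (log2 difference -0.21, interval -0.60 to 0.18, limma adjusted p = 0.559). H2-Ke6, also called Hsd17b8, an enzyme of mitochondrial fatty acid synthesis, averaged 12.2 ± 1.83 RPKM in TKO-labelled and 13.8 ± 0.346 RPKM in Control embryos (log2 difference -0.18, interval -0.44 to 0.08, limma adjusted p = 0.444). An overlapping gene model shared 62.9% of its windows of 50 bases, so its level is uncertain. H2-K2, which RefSeq lists as a transcribed pseudogene, stayed at 0.16 to 0.609 RPKM.

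Across all 49 genes, 0 passed the threshold of an adjusted p under 0.05 by limma, against 0.00957% of all tested genes (1 of 10451). At an unadjusted limma p under 0.05 stood 1 gene with lower values, H2-K1, of 13 tested, against 3.6% of all genes tested. H2-Q10 was under that p with higher values, as were 13.9% of all genes tested. Nothing is read from it, since only TKO-labelled embryos brought it past the filter. These counts do not set the 49 genes apart. The median log2 difference was -0.11 over the 13 tested genes, with 4 positive and 9 negative, and 0.09 over all genes, where 66.5% were positive. These 13 passed a filter on their own levels and do not stand for all 49. Of the 36 genes below the filter, 0 had an exact two-sided permutation p under 0.05, and the smallest was 0.0571. Fitted by limma without the filter, 4 of the 36 had an unadjusted p under 0.05, and the smallest adjusted p among them was 0.376. The smallest p that 70 assignments of 8 embryos can give is 0.0286.

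**Figure D4:**
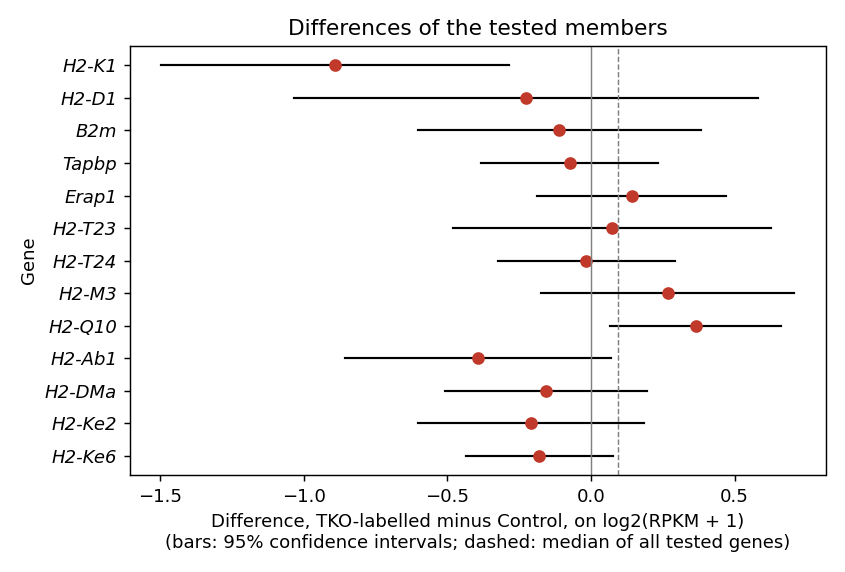
Difference in log2(RPKM + 1), TKO-labelled minus Control, for the 13 tested genes, with 95% confidence intervals from limma (n = 4 each); the dashed line marks the median of all tested genes, 0.09. The intervals of H2-K1 (-1.50 to -0.28) and H2-Q10 (0.07 to 0.66) leave out 0 before adjustment, and the others include it; nothing is read from the H2-Q10 interval, since only TKO-labelled embryos brought that gene past the filter.

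Other genes of antigen processing, from 6 lists, were compared in the same fit, and of 53 tested 0 passed the threshold in either direction by limma. At an unadjusted p under 0.05 were 10 with higher and 0 with lower values, against 13.9% higher and 3.6% lower of all tested genes. Groups did not overlap in 5 of the 53 (Lap3, Npepps, Nrd1, Pdia3 and Nfyc), each higher in TKO-labelled embryos, against 7.55% of all tested genes in that direction. Their median log2 difference was 0.19, with 43 of 53 positive, against 0.09 over all genes. In peptide supply (14 of 15 tested, 0 called) the smallest p belonged to Lap3, a leucine aminopeptidase, at 65.9 ± 7.04 RPKM in TKO-labelled and 49.8 ± 5.25 RPKM in Control embryos (log2 difference 0.40, limma adjusted p = 0.173). The translocon gene Sec61a1 came next, at 46.2 ± 11.9 RPKM in TKO-labelled and 30.9 ± 4.21 RPKM in Control embryos (0.54, limma adjusted p = 0.191). The inducible subunits of the immunoproteasome differed in level. Psmb10 averaged 32.2 RPKM in TKO-labelled and 36.9 RPKM in Control embryos (log2 difference -0.19, limma adjusted p = 0.421). Psmb9 averaged 0.964 ± 0.455 RPKM in TKO-labelled and 1.31 ± 0.598 RPKM in Control embryos (-0.22, limma adjusted p = 0.648). Psmb8 averaged 2.18 ± 1.93 RPKM in TKO-labelled and 2.19 ± 0.755 RPKM in Control embryos (-0.16, limma adjusted p = 0.844). TKO-labelled replicates 1 and 2 held its highest and lowest values of all embryos, 4.94 and 0.461 RPKM. These 3 subunits were named after their values were seen.

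In the loading step of the endoplasmic reticulum (8 of 9 tested, 0 called) the class I loading complex member Pdia3 averaged 130 ± 15.8 RPKM in TKO-labelled and 82.9 ± 27.1 RPKM in Control embryos (log2 difference 0.71, limma adjusted p = 0.198). The glycoprotein folding sensor Uggt1 averaged 5.38 RPKM in TKO-labelled and 4.35 RPKM in Control embryos (0.27, limma adjusted p = 0.331). Among lysosomal and class II processing genes (7 of 10 tested, 0 called) Lamp1, a lysosomal membrane protein, averaged 177 ± 24.5 RPKM in TKO-labelled and 132 ± 32.7 RPKM in Control embryos (0.44, limma adjusted p = 0.227). The endosomal protease gene Ctsd averaged 37.5 RPKM in TKO-labelled and 30.4 RPKM in Control embryos (0.30, limma adjusted p = 0.286).

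Regulators (16 of 18 tested, 0 called) were led by Nfyc, a subunit of the factor that binds CCAAT, at 29.5 ± 4.08 RPKM in TKO-labelled and 21.0 ± 1.23 RPKM in Control embryos (log2 difference 0.46, limma adjusted p = 0.156). Rfxank, a subunit of the RFX complex on MHC promoters, averaged 3.92 RPKM in TKO-labelled and 2.95 RPKM in Control embryos (0.31, limma adjusted p = 0.264). Among class I-like genes outside the H2 names (2 of 9 tested, 0 called) the neonatal Fc receptor gene Fcgrt averaged 3.96 ± 1.31 RPKM in TKO-labelled and 2.05 ± 0.729 RPKM in Control embryos (0.69, limma adjusted p = 0.181). Procr, the endothelial protein C receptor, averaged 3.19 RPKM in TKO-labelled and 3.93 RPKM in Control embryos (-0.23, limma adjusted p = 0.373). Of 27 interferon-induced genes 6 were tested and 0 called. Oasl2 averaged 1.10 RPKM in TKO-labelled and 0.671 RPKM in Control embryos (0.34, limma adjusted p = 0.305), and the GTPase gene Igtp averaged 1.34 RPKM in TKO-labelled and 0.826 RPKM in Control embryos (0.37, limma adjusted p = 0.356). Oasl2 reached 1 RPKM only in TKO-labelled replicates 1, 2 and 4 and Control replicate 3. Igtp did so only in TKO-labelled replicates 1, 2 and 3 and Control replicate 4. Both thus met the filter mainly through TKO-labelled embryos, and nothing is read from their direction.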

How the data were processed

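RPKM values were computed by the authors and deposited as 1 value per gene symbol and embryo, with the unit taken from the name of the table. Per the submitters' processing notes, HTSeq and the build mm9 were used; no source used here gives the aligner, the annotation, the use of strand or the treatment of reads that match several genes. Groups and replicate numbers came from the sample titles. Nothing in the labels links embryos to litters, so p-values measure only how these 8 embryos vary. All 8 columns were matched to samples.

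Depth was estimated from genes with 1 annotated transcript. The read total taken was the one at which the largest share of low values came out whole, within 2%, at 1 to 3 reads. It was 9.9 to 19.0 M reads (M for 1000000) in TKO-labelled and 12.4 to 16.4 M reads in Control embryos. Between 30.9% and 38.3% of low values were then whole at 1 to 3 reads, against a median of 1.18% to 1.59% over all totals tried. The deposited values are RPKM, not counts, and no count test was used.

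The groups were compared on log2(RPKM + 1), which understates changes of low genes, by limma 3.58.1 (R 4.3.3) with a variance trend, keeping genes at 1 RPKM or above in 4 or more embryos. P-values are two-sided and adjusted by Benjamini-Hochberg over all 10451 genes, with a threshold of 0.05. The model was tested on simulated data. Genes below the filter were compared by exact permutation of 8 embryos. The members, lists and tests were chosen with earlier results of these data known. Genes with a mean of at least 1 RPKM in a group are described in full, and of each other list the 2 with the smallest p; other genes named were chosen after their values were seen. Alternatives were another pseudocount, no filter, median-ratio scaling, no variance trend, a replicate block and each embryo left out; covariates for decidual stroma and parietal endoderm were added after seeing the data. Sequences are RefSeq's (GRCm38.p6), found for 37 of the 49 genes.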

Additional observations from a re-analysis of the deposited data

Results flagged for a closer look

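H2-DMa in Control replicate 3, at 2.46 RPKM, stood apart from the other 3 Control embryos, at 1.42 to 1.55 RPKM. Its gap to the nearest of them was 0.879 of the range of the group. This was 1 of 28 groups of 4 embryos checked, of which chance gives about 1 in 20.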

How the results depend on the processing

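The count of 0 called genes among the 49, and of 0 among the other antigen processing genes, was the same under all 15 alternatives, including the covariates chosen after seeing the data. Over all genes the count of calls went between 0 and 36, the highest without TKO replicate 1. The log2 difference of H2-K1 stayed negative throughout, at -1.12 without TKO replicate 1, -0.64 without TKO replicate 2 and -0.32 with the parietal endoderm covariate, and that of the summed classical heavy chains ran from -0.95 without TKO replicate 1 to -0.35 without TKO replicate 2, against -0.69 in all embryos. Differences near 0 changed sign when 1 embryo was left out, in ranges of -0.27 to 0.045 for B2m, -0.51 to 0.17 for H2-D1, -0.13 to 0.27 for H2-T23, -0.062 to 0.075 for H2-T24 and -0.15 to 0.022 for Tapbp. With the parietal endoderm covariate the differences were -0.57 for B2m, 0.32 for H2-D1, 0.076 for H2-DMa, 0.044 for H2-T24 and 0.017 for Tapbp, and the cause was not tested. As given above, that covariate cannot be separated from the group label. Median-ratio scaling moved the median of all genes to 0.02. With the replicate block H2-K1 had an adjusted p of 0.155 by limma and 0 genes were called among the 49 and among all genes, against 1 without it. Same-numbered embryos deviated together in 2 of 4 numbers only (r of -0.0045, 0.40, 0.26 and -0.02), so the numbers were not taken as pairs. Genes below about 0.1 RPKM are at the limit of the depth.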
